A study of Mus musculus with 3 samples.

Results

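Trimethylation of lysine 36 on histone H3 (H3K36me3) was profiled in regulatory T (Treg) cells, and the regions described here are the called peaks that lie at the outermost starts of protein-coding genes. A peak was taken when it was under 10000 bp long and its midpoint fell within 1 kb of the 5'-most transcript start of a GENCODE M21 protein_coding gene on GRCm38 (mm10). This rule gave 1769 start peaks among 120910 peaks (1.46%), and it used neither the signal nor the sequence of a peak. Of these, 748 lay away from every other coding gene and are called isolated start peaks. The remaining 1021, called shared start peaks, were centred inside another coding gene (333) or up to 10 kb behind its end (688), on either strand.

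The sorted CD3+CD4+Foxp3-YFP+ cells came from C57BL/6 mice carrying Foxp3-YFP, a Cre-YFP reporter read from the Foxp3 locus, and the labels name no other allele or treatment. The study gives age as a general range for its mice and not for this pool. Cells of 7 male and 7 female mice were pooled, so the spleen and the large intestine (LI) were each measured in 1 chromatin immunoprecipitation library, and a control library was not analysed here. There are no replicates, so no difference between the tissues was tested, and all values describe these 2 libraries.

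H3K36me3 is placed by Setd2, an enzyme that travels with elongating RNA polymerase II, and it is known as a mark of transcribed gene bodies that is low at the promoter and rises towards the 3' end. Many mammalian promoters sit in CpG islands, stretches rich in G, C and the CG dinucleotide. A gene start may also lie inside a neighbouring gene or just behind it, where the mark of the neighbour is found.

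The sequences at the centres of 5 start peaks show the range of base composition among them. They were chosen after the values were seen, each is 100 bases of the plus strand of GRCm38 around the midpoint of the peak, and CG dinucleotides are in capitals. The first 2 are from strong isolated start peaks, in introns of Pim1, a kinase gene induced by cytokines (chr17:29491545-29491644), and of Klf2, a transcription factor gene of resting lymphocytes (chr8:72319354-72319453). The third lies upstream of Setd2 itself (chr9:110532203-110532302) and 7.07 kb past the end of Kif9. The fourth lies upstream of Il10, an immunosuppressive cytokine gene (chr1:131019091-131019190). The last lies upstream of Lime1, an adaptor gene of lymphocyte receptor signalling, inside Zgpat (chr2:181379648-181379747).
Pim1: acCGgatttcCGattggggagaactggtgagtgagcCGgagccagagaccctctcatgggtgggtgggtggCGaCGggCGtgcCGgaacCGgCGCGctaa
Klf2: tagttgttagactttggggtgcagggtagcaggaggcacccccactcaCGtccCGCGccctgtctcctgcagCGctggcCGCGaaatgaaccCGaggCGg
Setd2: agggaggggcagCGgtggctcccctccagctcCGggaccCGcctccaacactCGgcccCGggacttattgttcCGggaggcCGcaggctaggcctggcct
Il10: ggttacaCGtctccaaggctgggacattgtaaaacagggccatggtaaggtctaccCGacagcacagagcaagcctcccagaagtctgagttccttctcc
Lime1: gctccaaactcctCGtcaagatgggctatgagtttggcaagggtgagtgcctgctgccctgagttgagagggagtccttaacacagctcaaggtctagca
These windows hold 10, 8, 7, 2 and 1 CG dinucleotides in the order given. Over the whole peaks, GC content was 65.0% at Pim1, 69.0% at Klf2 and 72.5% at Setd2, and it was 51.3% at Il10 and 52.6% at Lime1.

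The deposited value of a peak is its mean coverage in reads per kilobase per 1000000 mapped reads (RPKM). The value of a peak times its width in bp was a whole multiple, within 0.05, of 1.69 RPKM in spleen and 1.31 RPKM in LI for all of the 83663 and 74573 lower values checked. Taken as the worth of 1 read in a 20-bp bin, this step corresponds to about 29600000 and 38100000 mapped reads. Counts of reads below are estimates that take a read as covering 200 bp, and intervals made from them cover counting error only. All 42 Treg identity genes examined, among them Foxp3, Il2ra and Ctla4, had peaks in their bodies. Among markers of other cells, peaks were found in 3 of 8 B cell genes (summed signal 60.2 RPKM in spleen and 53.4 RPKM in LI), 2 of 8 myeloid genes (29.7 and 31.3 RPKM) and 2 of 9 epithelial genes (29.9 and 59.8 RPKM), while Ms4a1, Lyz2, Itgam, Krt8, Muc2 and Lgr5 had 0 peaks. The epithelial signal was mostly from 5 peaks in Epcam (25.3 RPKM in spleen and 47.2 RPKM in LI). A start peak was found at 1 of the 8 B cell genes, 1 of the 8 myeloid genes and 0 of the 9 epithelial genes, against 7.91% of all coding genes. The myeloid one was at Cd68, 1.06 kb behind Eif4a1, with 15.1 RPKM in spleen and 15.0 RPKM in LI.

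Start peaks were short, and the isolated ones were the shortest. Median width was 270.5 bp for isolated start peaks (quartiles 221 and 369 bp), 286 bp for those past the end of another gene, 431 bp for those inside another gene, and 457 bp for the other 118535 peaks under 10000 bp. The shortest peak was 200 bp in every class, so many widths stood close to this lower limit. Widths of at most 300 bp made up 60.2% of isolated start peaks and 28.9% of other peaks. Peaks of at least 1 kb made up 2.01% of isolated start peaks (15), 9.11% of shared start peaks (93) and 23.1% of the other peaks. Isolated start peaks also stood farther from their neighbours, with a median gap of 1762.5 bp to the nearest peak against 393 bp for shared start peaks and 216 bp for other peaks. The 606 peaks of 10 kb or more were left out by the rule, and 17 coding starts lay under such a peak.

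Base composition also differed between the classes. Median GC content was 68.0% in isolated start peaks, 62.5% past the end of another gene, 53.3% inside another gene and 46.4% in other peaks. With a CpG island taken as GC content over 50% and a CG count over 0.6 of that given by the base composition, 606 of 748 isolated start peaks (81.0%) met the definition. The share was 56.3% past the end of another gene, 21.3% inside another gene and 0.739% in other peaks. Peaks with over 65% GC were few in the whole set, 1156, and 830 of them were start peaks (505 isolated and 325 shared).

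**Figure D1:**
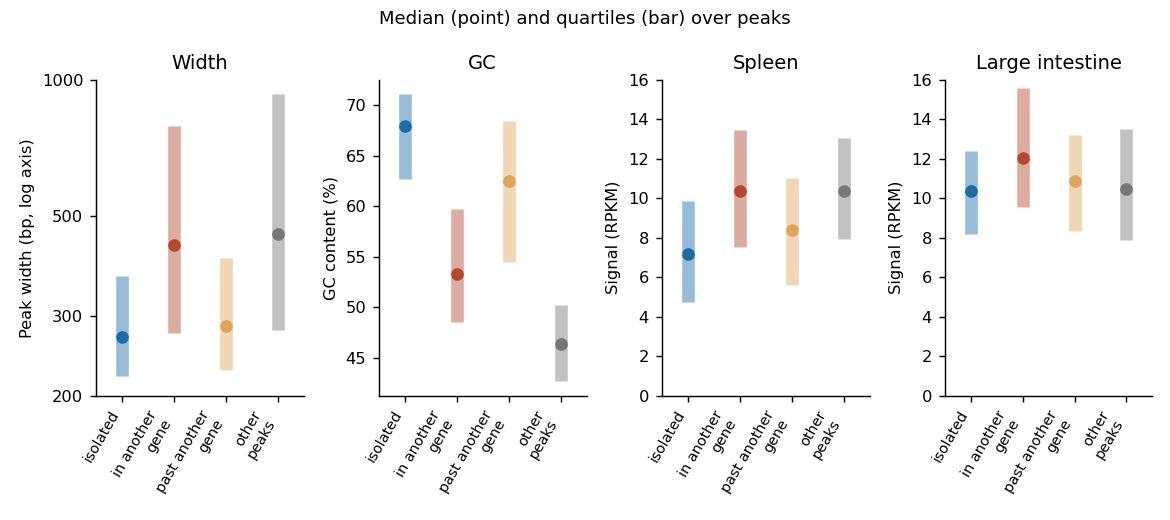
Width, GC content and signal of start peaks and of other peaks under 10000 bp. Points are medians and bars run from the lower to the upper quartile over peaks, for 748 isolated start peaks, 333 inside another coding gene, 688 within 10 kb past its end and 118535 other peaks. Isolated start peaks sit lowest in width and spleen signal and highest in GC content.

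Signal at isolated start peaks was low in spleen and close to that of other peaks in LI. Their median was 7.19 RPKM in spleen and 10.4 RPKM in LI, beside 10.4 and 10.5 RPKM for other peaks. Start peaks past the end of another gene had medians of 8.38 and 10.9 RPKM, and those inside another gene 10.4 and 12.02 RPKM. When each column was scaled to its total over all peaks, the medians for isolated start peaks were 5.48 parts per 1000000 of the total in spleen and 7.66 in LI, and for other peaks 7.90 and 7.75. The median isolated start peak rested on an estimated 16.3 reads over both libraries, so single peaks of this class are imprecise.

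Starts were on the whole places of low peak coverage. Windows within 1 kb of outermost starts made up 1.56% of the genome and held 1.46% of the peaks, a ratio of 0.937. In coding genes over 20 kb whose start lay away from other coding genes, 0.292% had a peak at 1 kb upstream, 0.985% at the start, 2.21% at 250 bp into the gene and 0.875% at 1 kb, after which the share climbed to 9.72% at 5 kb and 16.9% at 20 kb. A small local rise just inside the start thus stood in the dip of the profile. Where the start lay in or behind another coding gene, the share fell from 24.9% at 10 kb upstream to 4.70% at 1 kb upstream, and was 4.65% at 250 bp and 2.84% at 1 kb into the gene.

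**Figure D2:**
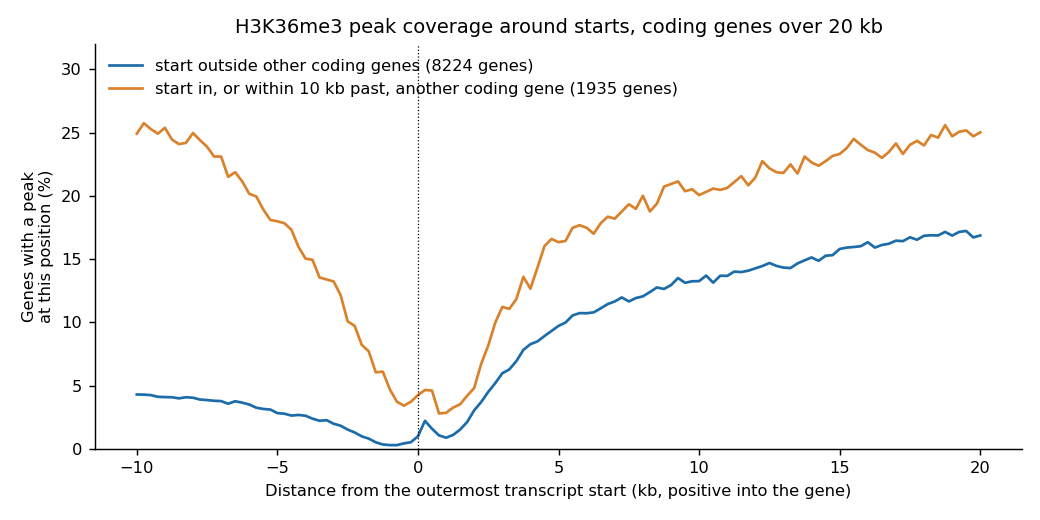
Share of coding genes over 20 kb that have an H3K36me3 peak of any width at each distance from the outermost start (kb, positive into the gene). The 8224 genes with a start away from other coding genes show a dip with a small rise to 2.21% at 250 bp, and the 1935 genes with a start in or behind another coding gene begin at 24.9% and dip to a few percent around the start.

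Isolated start peaks lay mostly just inside the gene. Their midpoints had a median position 322.5 bp downstream of the outermost start (quartiles 125.9 and 583.6 bp), 84.9% of them were downstream, and 18.9% of the peaks covered the start base itself. By annotation, 270 midpoints were in introns, 220 in non-coding parts of exons, 144 in coding exons and 114 outside the gene, mostly upstream of the start. In 115 cases the peak was near the starts of head-to-head genes. Their GC content was similar to that of the rest of the class (67.5% against 68.1%), and so was the signal, at 7.03 and 10.6 RPKM against 7.19 and 10.3 RPKM.

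Start peaks inside another gene had another position. Their median midpoint was 196 bp upstream of the start, 42.0% were downstream, and 163 of 333 (48.9%) lay in the 3'-most of 3 equal parts of the other gene. Among the 688 start peaks past the end of another gene, the other gene ran on the same strand in 74.7%, and the median midpoint was 272.3 bp downstream of the start. Their composition varied with the distance to the other gene's end. GC content was 57.8% within 2 kb of that end, 64.1% at 2 to 5 kb and 66.4% at 5 to 10 kb, and the share that met the island definition was 39.7%, 63.6% and 74.2%.

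Composition changed steeply with distance from the start, across the 1 kb limit as well as within it. Median GC content was 66.7% for peaks within 500 bp of a start, 57.6% at 500 to 1000 bp, 51.8% at 1000 to 1500 bp and 47.5% at 4500 to 5000 bp. The 126 peaks just inside the limit, at 900 to 1000 bp, had a median GC content of 54.0% and signals of 10.3 RPKM in spleen and 11.7 RPKM in LI. The 144 peaks just outside it, at 1000 to 1100 bp, had 53.1%, 9.36 RPKM and 11.2 RPKM.

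A start peak was found at 1735 of 21938 coding genes (7.91%). The share was 14.7% among the 9844 genes that had another peak in their body over 1 kb from the start, called marked genes here, and 2.41% among the 12094 others. Genes under 1 kb long cannot be marked by this definition, so all of them are among the others. For starts away from other coding genes it was 11.3% (733 of 6497) in marked genes and 0.867% (75 of 8647) in unmarked ones. For starts behind another gene it was 19.9% where that gene was marked and 4.18% where it was not, and for starts inside another gene 21.8% and 2.43%. Start peaks were thus counted mostly where the gene itself, or another gene that its start lay in or behind, carried the mark elsewhere.

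Among marked genes with a start away from other coding genes, the share rose with the GC content around the start. It was 2.38% of 252 genes with at most 45% GC within 500 bp of the start, 10.02% of 1616 genes with 55 to 60%, and 17.2% of 523 genes with over 70%. It fell with gene length, from 21.3% of 202 genes under 5 kb to 13.7%, 10.5% and 7.14% in the classes of 5 to 20 kb, 20 to 100 kb and over 100 kb. The genes with a start peak had a median start GC content of 62.3% and a median length of 25.5 kb, against 58.7% and 32.9 kb for those without.

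**Figure D3:**
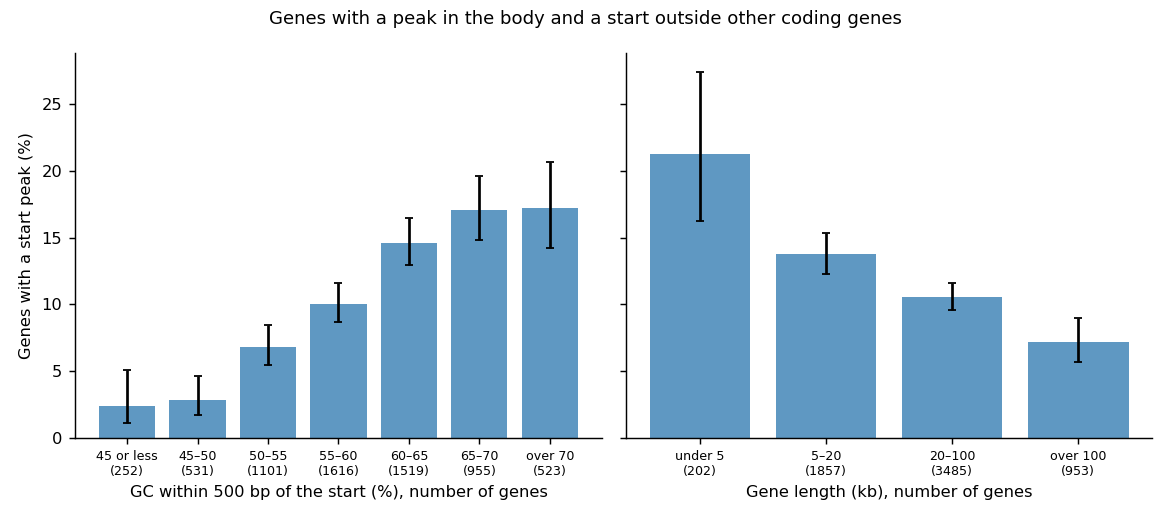
Share of genes with a start peak, by GC content within 500 bp of the start (left) and by gene length (right). The genes are coding genes with another peak in the body over 1 kb from the start, and a start away from other coding genes. Bars are shares, lines are 95% Wilson intervals over genes, which share the same 2 libraries, and the number of genes is under each bar. The share climbs from 2.38% to 17.2% with GC content and falls from 21.3% to 7.14% with length.

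A pair of short motifs were searched on both strands in the 250 bases upstream of each start, GGGCGG (the GC box bound by Sp1) and TATAAA. The GC box letters were present upstream of 39.0% of all 21938 coding starts, 66.4% of the 804 starts with an isolated start peak and 47.7% of the 931 with only shared start peaks. The letters TATAAA were present upstream of 11.5%, 6.09% and 5.91%. The 100 bases upstream of the start held a median of 4 CG dinucleotides over all coding starts, 9 with an isolated start peak and 6 with a shared one. These matches describe letters in the windows only.

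The tissue ratio was taken as log2 of LI over spleen with 0.5 RPKM added to each and the column totals equalised, so 0 is the ratio of the totals. Start peaks had a higher signal in LI than in spleen more often than other peaks did. The merged peaks came from calls in either tissue, the study used splenic Treg chromatin as input, and the LI library was the deeper. A weak peak can thus be in the set through a high value in 1 tissue only. Whether this raised the ratio was not tested. Over all peaks of a class, the median ratio was 0.60 for isolated start peaks (95% interval of the median over peaks, 0.50 to 0.66), 0.39 past the end of another gene, 0.16 inside another gene and -0.02 for other peaks, and 70.9%, 64.8%, 59.2% and 48.6% of peaks were above 0. Among peaks with at least 20 estimated reads, 256 of 748 isolated start peaks passed and had a median of 0.52 (0.39 to 0.64), 542 of 1021 shared start peaks had 0.23 (0.15 to 0.28), and 79455 other peaks had 0.0036. With at least 50 estimated reads the medians were 0.23 for 37 isolated and 0.078 for 179 shared start peaks.

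Peaks past 2-fold followed the same order. Of 80253 peaks with at least 20 estimated reads, 5.12% were over 2-fold higher in LI and 3.49% over 2-fold higher in spleen. Among the isolated start peaks that passed this filter, 61 of 256 (23.8%) were over 2-fold higher in LI and 6 (2.34%) in spleen. The counts were 53 and 5 of 310 past the end of another gene, and 18 and 2 of 232 inside another gene. By a rule that the counting interval leave out 0, 45 isolated start peaks (17.6%) were higher in LI and 8 (3.13%) higher in spleen. The shares of all peaks tested were 7.76% and 6.19%. Other peaks with over 65% GC were close to isolated start peaks in these calls. Of 143 with at least 20 estimated reads, 32 (22.4%) were over 2-fold higher in LI and 5 in spleen. By the interval rule, 33 of them (23.1%) were higher in LI and 6 in spleen.

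The ratio was highest in the GC-richest class in every kind of peak, but it rose class by class in other peaks only. In isolated start peaks the median was -0.31 at 45 to 50% GC, 0.23 at 50 to 55%, 0.15 at 55 to 60% and 0.27 at 60 to 65%. Of these, only the last had an interval that left out 0 (0.04 to 0.65). Among other peaks the median ratio climbed from -0.39 in 14585 peaks with at most 40% GC to 0.16 in 22864 peaks with 50 to 55% and 0.62 in 326 peaks with over 65%. In that last class isolated start peaks had 0.71 (0.63 to 0.78) and shared start peaks 0.64 (0.51 to 0.73), and the interval for the other peaks, 0.48 to 0.75, overlapped both. With each peak set against the median of the other peaks of its GC and width class, a correction added after the data were seen, the median was 0.020 over all isolated start peaks and 0.053 over those with at least 20 reads. It was -0.0028 and 0.0018 for shared start peaks. On this scale 20 isolated start peaks were over 2-fold towards LI and 22 towards spleen, of 256 (7.81% and 8.59%). The shares of all peaks tested were 4.60% and 3.42%. Of the 143 other peaks with over 65% GC and at least 20 reads, 5 were past 2-fold towards LI and 16 (11.2%) towards spleen. Whether the GC trend arose in the cells or in the preparation of the 2 libraries cannot be told apart here.

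**Figure D4:**
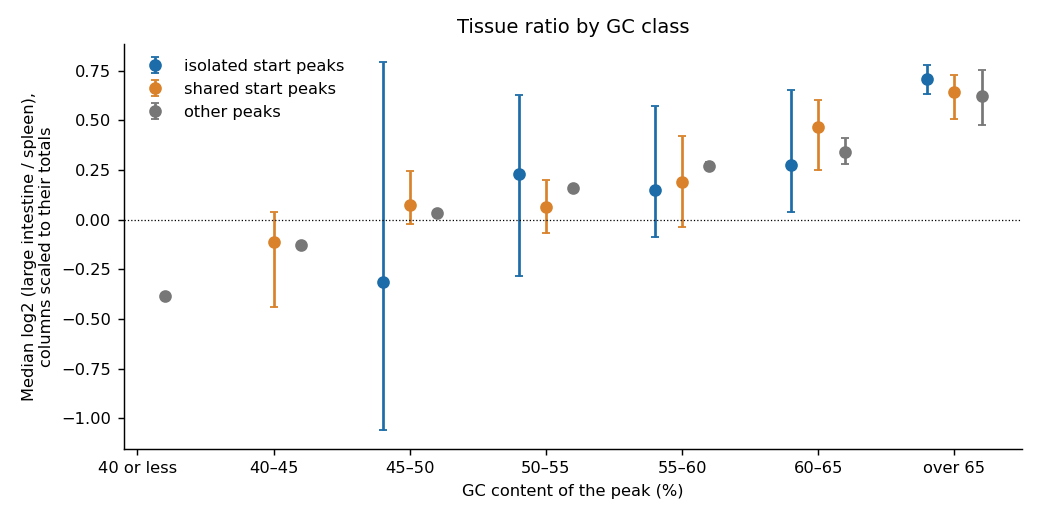
Median log2 ratio of LI to spleen by GC content of the peak for isolated start peaks, shared start peaks and other peaks under 10000 bp, with 95% intervals of the median over peaks. Classes of under 20 peaks are left out. All 3 kinds have their highest median in the class over 65%, where they are 0.71, 0.64 and 0.62 and their intervals overlap.

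The strongest isolated start peaks, chosen among those of at least 1 kb, were in short genes. Pim1 had the highest signal of them, with 30.8 RPKM in spleen and 52.1 RPKM in LI over 1663 bp, and its ratio was 0.71 (counting interval 0.43 to 0.98). Actg1, which encodes cytoplasmic gamma-actin, had 26.2 RPKM in spleen and 32.8 RPKM in LI. H2-Q4, a class I histocompatibility gene with near-identical relatives among which reads may be split, had 25.5 and 32.5 RPKM. Spn, which encodes the leukocyte sialoglycoprotein CD43, had 25.3 and 26.6 RPKM, and Pcbp1, an RNA-binding protein gene, 22.0 and 17.7 RPKM. For these last 4 the counting interval of the ratio held 0. Over the 15 isolated start peaks of at least 1 kb, the median gene was 5.59 kb long and 9 genes were under 6 kb, while the median over all isolated start peaks was 24.3 kb. The longest of them, 3983 bp at Dennd2d, lay mostly upstream of the start, and 3318 bp were covered at Gm340 (13.3 and 17.01 RPKM), 2246 bp at Hspa8, the constitutive heat shock chaperone gene (17.04 and 17.5 RPKM), and 2116 bp at Zfp626 (15.3 and 14.7 RPKM).

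Among isolated start peaks with at least 50 estimated reads, those most clearly higher in LI besides Pim1 were at 4 starts. Tsen54, a subunit gene of the transfer RNA splicing endonuclease, had 5.12 RPKM in spleen and 15.7 RPKM in LI, a ratio of 1.48 (0.56 to 2.40). H2-Q6, another class I histocompatibility gene with close relatives and therefore uncertain, had 8.71 and 24.6 RPKM. The peak near the starts of both Dpm1 and Mocs3 had 7.99 and 19.1 RPKM. Ddit4, a stress-induced inhibitor of mTORC1 signalling, had 14.4 and 22.1 RPKM, a ratio of 0.56 (0.18 to 0.94). Their GC content was 59.5% to 71.1%, and set against their GC and width class the ratios of Tsen54, H2-Q6, Mocs3, Ddit4 and Pim1 were 0.81, 0.73, 0.49, 0.34 and 0.07.

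Fewer isolated start peaks were higher in spleen, and 2 of the 5 at this end had a counting interval below 0. These were Dennd2d, with 14.8 RPKM in spleen and 8.32 RPKM in LI (ratio -0.84, interval -1.17 to -0.51), and Prr14, with 14.9 and 8.89 RPKM (-0.76, -1.38 to -0.13). Both peaks were poor in GC for their class, at 45.7% and 46.9%. Klf2 had 28.9 and 23.2 RPKM (-0.36, -0.85 to 0.13) at 69.0% GC, and its ratio against other peaks of like GC and width was -1.03. Pcbp1 and an upstream peak of 750 bp at Zfp626 (12.5 and 8.35 RPKM) completed this end, and for them the interval held 0.

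The strongest shared start peaks, chosen among those of at least 1 kb, ran across the start of a gene lying in or just behind another. The highest signal among them was at Gm35339 inside Maf1, a repressor gene of RNA polymerase III (35.9 RPKM in spleen and 38.6 RPKM in LI over 3832 bp). Gm49388 inside Setd1a, an H3K4 methyltransferase gene, had 29.3 and 32.7 RPKM, and Trim47 inside Trim65 had 25.5 and 31.8 RPKM. Fam83e, 0.345 kb behind the ribosomal protein gene Rpl18, had 25.7 and 27.0 RPKM. At Atp5o and Myl12b the other gene is a second record of the same symbol, so their class is uncertain. The widest start peak of all, 9284 bp with 18.4 and 22.1 RPKM, crossed the start of Gm17545 inside Rp9, and one of 6599 bp with 17.5 and 19.4 RPKM crossed the start of Msantd1 in the last part of Htt, the huntingtin gene.

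Shared start peaks that differed most between the tissues were found in both directions. Towards LI, Gm45837 in the last part of Arap1 had 12.01 RPKM in spleen and 23.9 RPKM in LI (0.92, 0.58 to 1.25), and Gdpd3, just behind the ERK1 gene Mapk3, had 14.6 and 23.8 RPKM (0.64, 0.42 to 0.86). The short GC-rich peak between Nfs1 and Romo1, 2.90 kb behind Rbm39, had 9.65 and 26.3 RPKM (1.36, 0.50 to 2.21), Slc27a3, a fatty acid transport family gene behind Ints3, had 7.57 and 18.1 RPKM, and Myl12b 7.502 and 18.9 RPKM. Towards spleen, Lime1 inside Zgpat had 27.7 and 17.1 RPKM (-0.73, -1.003 to -0.456). Astl inside Dusp2, a phosphatase gene of activated T cells, had 30.6 and 20.5 RPKM (-0.61, -0.87 to -0.35). Arhgef18, 2.80 kb behind A430078G23Rik, had 18.1 and 11.4 RPKM, and Gm13199 inside Nudt5 had 13.9 and 7.49 RPKM. The peak at Mvp and Pagr1b had 22.2 and 13.3 RPKM and is uncertain, since Pagr1a and Pagr1b are near-identical copies.

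**Figure D5:**
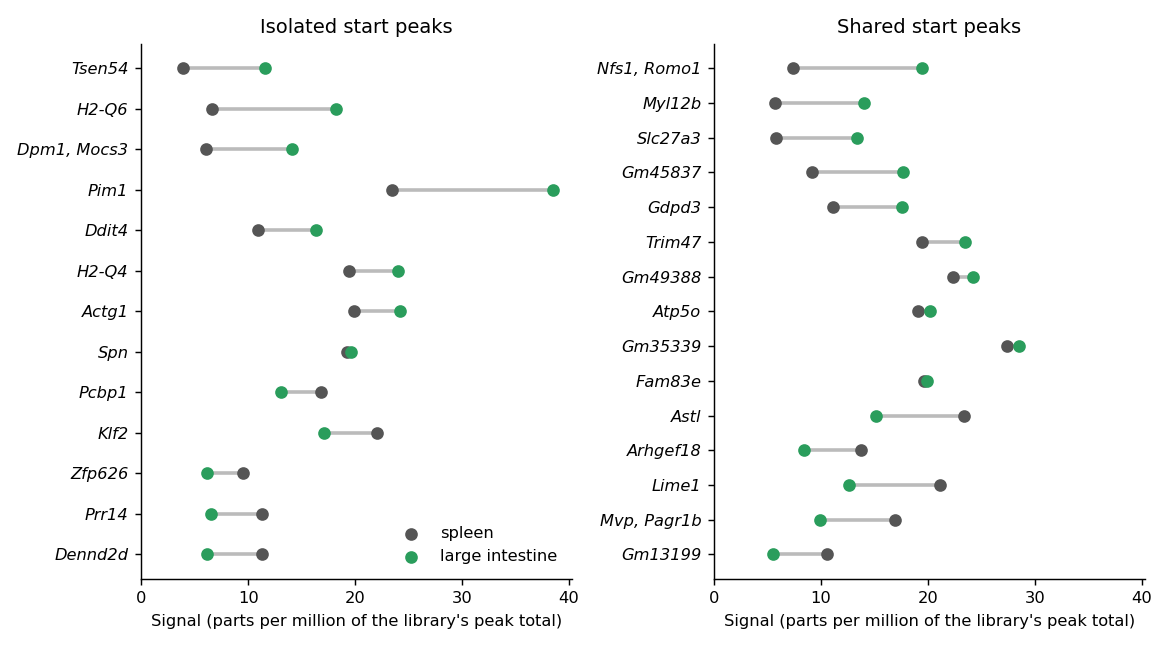
Signal in spleen and LI, in parts per 1000000 of each library's total over peaks, for the strongest start peaks of at least 1 kb and for those that differ most between the tissues, isolated (left) and shared (right). Each line joins the 2 libraries of 1 peak, ordered by the ratio. Pim1 has the highest LI value of the isolated peaks, and Dennd2d, Prr14, Lime1 and Astl are higher in spleen.

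Of 42 Treg identity genes, 8 had a start peak (10 peaks, 6 of them with at least 20 reads), and 1 peak with that depth was over 2-fold higher in LI. Among marked genes the share with a start peak was 7 of 41 (17.1%), near the 14.7% of all marked genes, and 16.5% of all start peaks of that depth were over 2-fold higher in LI. Il10 had 3.12 RPKM in spleen and 15.5 RPKM in LI at an isolated upstream peak, with an estimated 2.58 and 16.4 reads and a ratio of 2.10 (0.34 to 3.85), which rests on under 20 reads in all. Tgfb1, which encodes a suppressive cytokine, had a peak upstream inside B9d2 (11.997 and 18.04 RPKM) and another 996.5 bp downstream in a coding exon (6.13 and 15.4 RPKM, ratio 1.22, 0.09 to 2.35). At Tnfrsf18, the gene of the receptor GITR, adjoining peaks had opposite signs: 11.9 and 5.69 RPKM across the start (-1.04, -2.44 to 0.36) and 7.51 and 15.2 RPKM in the intron behind it (0.93, 0.16 to 1.697).

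The remaining Treg genes with a start peak differed less. The peak counted for Foxp3, at its outermost annotated start and near that of Ppp1r3f, had 9.58 and 11.4 RPKM. That start need not be the one of the main Foxp3 transcript. Stat5a had 9.38 and 12.3 RPKM, and Il2rb, the beta chain of the interleukin-2 receptor, 9.48 and 7.99 RPKM. Foxo1, a transcription factor of T cell quiescence, had 5.80 and 10.1 RPKM at a peak of 75.6% GC. For all of these the counting interval of the ratio held 0. Cd83, a gene the study followed, had an isolated start peak with 4.38 and 8.58 RPKM.

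Of 25 genes for writers, readers and erasers of H3K36 methylation, all of them marked, 6 had a start peak, against 14.7% of all marked genes, each on under 20 estimated reads. Setd2, the enzyme that places the mark, had 4.86 RPKM in spleen and 7.89 RPKM in LI over 211 bp, an estimated 3.04 and 6.35 reads. Setd5 had 4.92 and 12.4 RPKM, Brpf1 6.13 and 11.8 RPKM, Kdm2b, a demethylase gene whose product binds CpG islands, 4.35 and 7.71 RPKM, and Psip1, which encodes the H3K36me reader LEDGF, 5.21 and 11.0 RPKM. Phf1, a Polycomb-associated reader gene, was the only one of the 6 with a higher value in spleen, 15.7 against 9.10 RPKM. For each of the 6 the counting interval of the ratio held 0.

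The colonic and splenic Treg signatures are lists of genes with higher messenger RNA in Treg cells of that organ, taken from the lists the study used. A start peak was found at 61 of 457 colonic signature genes (13.3%) and at 44 of 438 splenic signature genes (10.05%), against 7.91% of all coding genes. The share of marked genes also differed, at 327 of 457 and 378 of 438, and among marked genes the shares were 17.7% and 11.1%, against 14.7% of all marked genes. The 69 start peaks of the colonic list had median signals of 6.64 RPKM in spleen and 12.1 RPKM in LI and a median ratio of 0.78, with 57 peaks above 0. The 45 of the splenic list had 9.04 and 11.0 RPKM and 0.24, with 27 above 0. Of peaks with at least 20 reads, 12 of 33 in the colonic list and 6 of 24 in the splenic list were over 2-fold higher in LI and 0 in either list over 2-fold higher in spleen, beside 16.5% and 1.63% of all 798 start peaks of that depth and 5.12% and 3.49% of all peaks. Against peaks of like GC and width the medians were 0.26 and -0.07, and the difference between the lists was not tested.

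Start peaks over 2-fold higher in LI in the colonic list, with examples named after their values were seen, included those at Ifngr1, Fosl2 and Odc1. Ifngr1, the interferon-gamma receptor chain gene, had 3.94 RPKM in spleen and 14.7 RPKM in LI (1.73, 0.38 to 3.08) at 1 isolated peak, and at another isolated peak of the same start 9.14 and 10.0001 RPKM (0.08, -1.37 to 1.52). Fosl2, an AP-1 transcription factor gene, had 3.90 and 11.8 RPKM (1.44, 0.32 to 2.56). Odc1, the first enzyme of polyamine synthesis, had 6.64 and 15.9 RPKM (1.16, 0.23 to 2.09). In the splenic list, Dtd2 had 7.25 and 21.8 RPKM (1.48, 0.33 to 2.63), towards LI like the colonic genes, and Dennd2d and Arhgef18 were the 2 splenic list genes with at least 20 reads whose counting interval lay below 0.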

How the data were processed

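H3K36me3 ChIP-seq of pooled Treg cells was analysed for 1 spleen and 1 large intestine library. According to the study's methods and processing notes, single-end 75 nt reads were aligned to mm10 with Bowtie2, peaks were called with MACS2 and merged across tissues with bedtools, and the authors deposited the mean RPKM coverage of each merged peak per library. The file is named as raw counts but its values are not whole numbers. Versions were not given in the sources used here.

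Starts and bodies came from GENCODE M21 and sequence from GRCm38. Ratios used log2(RPKM + 0.5) after scaling to column totals, with pandas 2.3.3 and numpy 2.4.6 in python 3.11.15. Ratios and intervals were tested on simulated data. Depth was read from the step of low values, with 0 columns of per-sample values left unused.

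The members and lists were chosen with earlier results of these data known. Named peaks are the 5 strongest of at least 1 kb, the 5 longest, the 5 in each direction with the most extreme interval bound (at least 50 reads), per class, and those at Treg identity, H3K36 and study genes, of which some items are not reported here. Alternatives were another distance, neighbour region, transcript set, scaling, pseudocount, depth filter and GC correction.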

Additional observations from a re-analysis of the deposited data

How the results depend on the processing

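No paired analysis was possible because each tissue has 1 library, and no replicate could be left out. Of 124 values recomputed, 69 stayed within the 95% interval of the reported median or share, or within 1.5 times the reported count, and no ratio changed sign among the 124. The share of isolated start peaks among all start peaks (42.3%) was 39.2% at 2 kb from the start, 81.2%, 52.3% and 15.0% with 0, 5 and 50 kb past the other gene counted, and 13.9% among peaks of at least 1 kb. At 500 bp, there were 1086 start peaks, with a GC content of 69.3% for the isolated ones, a ratio of 0.30 for the shared ones, and 85 and 7 past 2-fold towards LI and spleen. At 2 kb, there were 3604, and the isolated ones had a width of 286.5 bp, GC of 60.2%, 6.33 and 7.39 parts per 1000000 of the column total (ppm) in spleen and LI, and a ratio of 0.23; the shared ratio was 0.13, with 210 and 59 past 2-fold. With 0 bp past the other gene's end, isolated start peaks had GC of 65.9% and 5.83 ppm in spleen, and the shared ratio was 0.11. With 50 kb, spleen and LI signals were 5.06 and 7.45 ppm and the isolated ratio was 0.80. Among peaks of at least 1 kb (108 start peaks), isolated ones had a width of 1628 bp, GC of 58.0%, 11.3 and 12.6 ppm and a ratio of 0.30, the shared ratio was 0.040, and 0 were past 2-fold in either direction. The cause was not tested, but these limits change which peaks are counted. The pseudocount, the depth filter and the GC correction moved the ratio itself. A pseudocount of 5 RPKM gave 0.36 for isolated start peaks and 24 and 4 past 2-fold. No depth filter gave 0.28 for shared start peaks with 442 and 151 past 2-fold, and reads of 75 bp gave 0.28 with 432 and 139. A minimum of 50 reads gave 0.23 and 0.078 with 11 and 0. Correction by 20 GC bins gave 0.19 and 0.031 with 57 and 34, and by GC and width class, chosen after seeing the data, 0.053 and 0.0018 with 40 and 43. Autosomes only, protein_coding transcripts only, both other scalings, and the neighbour region by any base, also chosen after seeing the data, left every value they gave within these limits. At a median of 16.3 estimated reads per isolated start peak, 1 library per tissue limits what a single peak can show.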

Other observations

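Gene families were counted by their name prefix, a choice made after the values were seen. Of 83 cytosolic ribosomal protein genes, 32 (38.6%) had a start peak, against 7.91% of all coding genes, and in 6 of them it was an isolated one. Among marked genes the shares were 37.5% (24 of 64) in this family and 14.7% over all. The median signals of their 36 start peaks were 9.44 RPKM in spleen and 11.7 RPKM in LI, and 0 of the 21 peaks with at least 20 reads were past 2-fold in either direction. The isolated peak at Rpl11 had 11.6 and 14.7 RPKM, and Rps13, behind Pik3c2a, 5.35 and 14.3 RPKM. Genes of ribosomal proteins have many processed pseudogenes, and their values are uncertain.

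Of 394 genes whose names begin with Zfp, zinc finger protein genes, 29 (7.36%) had a start peak, near the 7.91% of all coding genes. Among the 274 marked ones the share was 10.2%, against 14.7% of all marked genes. Their 30 peaks had median signals of 6.47 RPKM in spleen and 11.8 RPKM in LI and a median ratio of 0.85, and 7 of the 14 with at least 20 reads were over 2-fold higher in LI, beside 16.5% of all start peaks and 5.12% of all peaks of that depth. Against other peaks of like GC and width the median was 0.47. Zfp511 had 1.94 RPKM in spleen and 15.7 RPKM in LI (2.69, 0.85 to 4.52), and Zfp866 had 6.32 and 18.02 RPKM (1.40, 0.40 to 2.39). Of 78 histone genes, 4 (5.13%) had a start peak, against 7.91% of all coding genes. Only 5 of the 78 were marked, but a gene under 1 kb long cannot be, so this count does not show how much of the mark they carry.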
